A study of Mus musculus with 8 samples.

Results

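Cortisol and serotonin were given together to 3T3-L1 pre-adipocytes that shared a transwell with Raw264.7 macrophages, and RNA of the pre-adipocytes was taken at 48 h. The members are 2 of the 8 arrays of the series, the cortisol-serotonin array and the untreated array of the co-cultured pre-adipocytes, chosen by their labels, with 1 array per condition and no replicate. The 2 arrays of the single hormones in the same cells were used for comparison, and the 4 arrays of co-cultured macrophages were used where both cell lines are named. By the paper's methods, RNA came from the lower well of each set-up. The macrophages were therefore from separate co-cultures, with the lines placed the other way round and other cell numbers. By the labels, 100 µM of each hormone was added for the combination and 100 µM of the one hormone for the single treatments, and the untreated co-culture had 0 µM of both.

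3T3-L1 is a line of mouse embryonic fibroblasts that can be driven to become fat cells, and Raw264.7 is a macrophage-like line from a mouse tumour. Both are clonal lines without a stroma, blood supply or nerve supply. In the transwell, cells on either side of a porous membrane exchange soluble factors without touching, so the macrophages were present with every treatment and in the untreated co-culture. All 4 co-cultures of pre-adipocytes therefore differed by label in the hormones only.

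Cortisol binds the glucocorticoid receptor, which moves to the nucleus and switches genes on at its own DNA elements, and represses many inflammatory genes that AP-1 and NF-kB drive. Known targets in many cells are Fkbp5, a chaperone that restrains the receptor, and Zbtb16, a zinc-finger repressor. In pre-adipocytes, glucocorticoids are part of the usual cocktail that starts adipogenesis. Serotonin acts through a family of surface receptors, most of which are coupled to G proteins, and is taken up by the transporter Slc6a4 and broken down by the oxidase Maoa.

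Sample RNA was labelled with Cy5 and a reference common to all arrays with Cy3, so a value is the log2 ratio of Cy5 to Cy3. The cortisol-serotonin array minus the untreated array cancels the reference and gives the log2 difference used throughout, where 1 is a 2-fold rise. The departure from the sum is that difference minus the sum of the 2 single-hormone differences, each taken against the same untreated array. A departure of 0 means that the log2 differences of the single hormones added up to that of the combination. The untreated array enters the sum 2 times, so an unusual value on it also moves the departure. With 1 array a side there is no error between cultures, and these arrays alone allow no test of a single gene. Models over all 8 arrays, which rest on added assumptions, are given after the differences. Beside each named value stands the error that the scanner software gives a log ratio, combined over the arrays, which covers the measurement of the spots only. Its median was 0.30 for the difference and 0.42 for the departure.

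On the arrays of pre-adipocytes, 45.6% to 47.8% of spots were well above background. Median Cy5 signals were 67 units untreated, 62 labelled cortisol, 79 labelled serotonin and 78 with both, over backgrounds of 26.5 to 27. In that order the arrays lay at slide positions 1, 2, 3 and 4. The arrays labelled serotonin and cortisol-serotonin were thus the brighter pair, and the part of brightness or position in the differences was not tested. Over 227 probes printed 5 or more times on each array, the SD between repeated spots had a median of 0.063 for the difference and 0.091 for the departure. The 4 arrays of a cell line lay on 1 slide, each treatment at the same position on both slides. Treatment and position therefore cannot be told apart, nor can cell line, slide and co-culture set-up.

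One label was at odds with part of the data and bears on every comparison with a single hormone. Fkbp5 had a log2 ratio of -0.85 on the untreated array, -0.71 on the array labelled cortisol, 0.47 on the array labelled serotonin and 0.60 with both. Zbtb16 stood at 0.67, 0.48, 2.61 and 2.63 in the same order. Tsc22d3, a leucine-zipper protein that glucocorticoids switch on, stood at -0.22, -1.28, 0.18 and 0.55. For these 3 genes the arrays labelled serotonin and cortisol-serotonin were above untreated, and the array labelled cortisol was near or below it. Klf9, a Kruppel-like factor that answers glucocorticoids, was at 0.65, 1.21, 1.44 and 1.51, above untreated on all 3 treated arrays, and Per1, a clock gene of the same kind, was at 1.87, 1.46, 2.26 and 2.49. Pdk4 and Ddit4, 2 further listed targets, were also higher on the array labelled cortisol than untreated, at 1.00 against 0.26 and 0.46 against -0.30. Over the 21 glucocorticoid targets measured on all 4 arrays, the median difference on that array was -0.20. The single-hormone arrays are therefore called the arrays labelled cortisol and labelled serotonin. An exchange of those 2 labels would leave the combination, the sum and the departure as they are, since each adds both. Whether the labels were exchanged was not tested.

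The cells on the arrays were checked against their markers. Of 14 fibroblast and pre-adipocyte markers, the summed background-subtracted Cy5 signal was 345720 units on the untreated array and 380108 on the cortisol-serotonin array, against 5973 to 19561 on the macrophage arrays. Lum was not well above background on either of the 2 arrays, nor was Cd34 on the untreated array. The Ly6a spot of the untreated array and the Vim spot of the cortisol-serotonin array were marked as outliers. The 2 sums therefore do not rest on the same spots. Of 15 macrophage markers, 11 were measured on both arrays, with a median difference of -0.36. Their summed signal was 12984 units on the untreated array and 24270 on the cortisol-serotonin array, but 8509 and 8857 without Itgam, of which a single probe was bright. The same sum was 141311 to 235955 units on the macrophage arrays. Of the 14 macrophage markers with a probe, 11 were well above background on the untreated and on the cortisol-serotonin array of pre-adipocytes. Adgre1, Spi1 and Cd52 were not, though Cd52 was above it on the pre-adipocyte array labelled cortisol.

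The promoter stretches of 6 genes are shown first, because these genes stand for the main groups of the results, namely acute-phase genes that rose, matrix and cytokine-receptor genes that fell, and F3, which fell with one hormone only. Each is the 250 bases before the gene's start in RefSeq (GRCm38.p6), 5′ to 3′ on the strand of the gene. Both strands were searched for 3 motifs. Capitals mark the motif named for each gene. In Serpina3n they mark a glucocorticoid response element, searched as the half-sites GNACA and TGTNC with any 3 bases between them and present in 0.387% of 32851 windows of that length. In Orm2 and Orm3 they mark a C/EBP motif, TTGCNNAA, present in 9.56%. In Mmp10, Il13ra2 and F3 they mark AP-1 motifs, TGANTCA, present in 6.75%. Matches to the other motifs are left in small letters. The windows of Orm2 and Orm3 also held an AP-1 match, and that of Mmp10 also held a C/EBP match. A match to these letters describes the sequence and is not a bound site.

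Serpina3n (chr12:104406458-104406707, strand +): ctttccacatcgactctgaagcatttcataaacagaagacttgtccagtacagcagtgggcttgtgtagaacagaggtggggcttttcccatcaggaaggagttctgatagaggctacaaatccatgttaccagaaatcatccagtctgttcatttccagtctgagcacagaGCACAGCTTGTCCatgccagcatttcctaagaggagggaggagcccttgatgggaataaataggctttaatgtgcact
Orm2 (chr4:63362199-63362448, strand +): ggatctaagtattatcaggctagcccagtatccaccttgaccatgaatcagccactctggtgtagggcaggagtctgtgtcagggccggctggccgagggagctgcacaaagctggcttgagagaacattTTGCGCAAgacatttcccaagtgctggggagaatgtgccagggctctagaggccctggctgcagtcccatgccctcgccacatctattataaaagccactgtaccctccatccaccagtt
Orm3 (chr4:63355908-63356157, strand +): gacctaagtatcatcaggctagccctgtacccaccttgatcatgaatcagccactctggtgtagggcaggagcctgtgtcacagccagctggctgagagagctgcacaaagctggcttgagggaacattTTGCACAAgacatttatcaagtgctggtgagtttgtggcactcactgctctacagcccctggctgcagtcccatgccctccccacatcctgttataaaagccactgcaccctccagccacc
Mmp10 (chr9:7502092-7502341, strand +): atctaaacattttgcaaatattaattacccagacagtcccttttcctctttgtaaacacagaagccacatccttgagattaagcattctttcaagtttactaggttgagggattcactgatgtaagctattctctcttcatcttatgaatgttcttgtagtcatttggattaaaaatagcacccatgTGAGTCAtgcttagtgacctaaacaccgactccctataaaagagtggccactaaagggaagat
Il13ra2 (chrX:147429193-147429442, strand -): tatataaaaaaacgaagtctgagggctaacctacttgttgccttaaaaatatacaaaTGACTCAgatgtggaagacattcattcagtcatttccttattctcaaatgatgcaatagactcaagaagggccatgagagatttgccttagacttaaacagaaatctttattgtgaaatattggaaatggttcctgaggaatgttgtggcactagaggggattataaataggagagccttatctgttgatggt
F3 (chr3:121723287-121723536, strand +): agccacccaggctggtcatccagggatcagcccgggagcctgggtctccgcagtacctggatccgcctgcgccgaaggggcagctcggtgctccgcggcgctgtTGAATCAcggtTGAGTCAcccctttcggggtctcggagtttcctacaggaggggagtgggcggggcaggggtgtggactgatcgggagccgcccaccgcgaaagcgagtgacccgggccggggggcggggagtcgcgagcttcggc

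Serpina3n held its match 78 bases before the start. The C/EBP matches of Orm2 and Orm3 began 120 and 121 bases before the start, and 85.9% of the aligned positions of their windows were identical. F3 held a pair of AP-1 matches, the nearer beginning 135 bases before the start. Of the 10 largest rises, 6 had a window in the table, and 1 of these held the glucocorticoid motif, 2 the C/EBP motif and 3 the AP-1 motif. Of the 10 largest falls, 9 had a window, of which 0 held the glucocorticoid motif, 1 the C/EBP motif and 2 the AP-1 motif.

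The genes highest above untreated with the combination included acute-phase protease inhibitors (Serpina3m, Serpina3n), Cdo1 and Fabp4, and those lowest included Mmp10, Timp1, Timp3 and Mmp9. Of 13400 genes measured on both arrays, 191 (1.43%) differed by 2-fold or more, 105 (0.784%) being higher and 86 (0.642%) lower with cortisol-serotonin than without treatment. Of 185 such genes measured on all 4 arrays of the cell line, 161 lay within 0.5 (log2) of the array labelled serotonin, 88 within 0.5 of the sum and 59 within 0.5 of the array labelled cortisol. The median difference of the 102 that rose was 1.28, against 1.08 with the treatment labelled serotonin and 0.35 with that labelled cortisol. For the 83 that fell the medians were -1.18, -1.16 and -0.60 in the same order.

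The gene with the largest rise was Serpina3m, a serine protease inhibitor of the alpha-1-antichymotrypsin family, which the liver secretes in the acute phase. Its log2 ratio was -0.03 on the untreated array, 0.34 on the array labelled cortisol, 3.37 on the array labelled serotonin and 3.80 with both hormones. The difference for the combination was 3.82 (error 0.53), or 14.1-fold. Its relative Serpina3n read 0.85, 1.13, 3.83 and 4.07, a difference of 3.22 (error 0.53) or 9.29-fold. The arrays thus fell into a low pair, untreated and labelled cortisol, and a high pair, labelled serotonin and cortisol-serotonin.

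Cdo1, the dioxygenase that commits cysteine to taurine, was at -0.98, -0.41, 1.51 and 2.03 and rose by 3.01 (error 0.43). Fabp4, the fatty-acid carrier of adipocytes and macrophages, was at 0.02, 0.01, 2.26 and 2.47 and rose by 2.45 (error 0.37), 5.45-fold. For both genes the 2 arrays that carry serotonin in their label were high and the other 2 were low.

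The other largest rises named here had the same shape, apart from Slco4a1. Orm3, an acid glycoprotein of the acute phase, rose by 2.32, and the chloride-channel regulators Clca3a1 and Clca3a2 by 2.49 and 2.26. Ctla2b, an inhibitor of cathepsin-like proteases, rose by 2.23. Slco4a1, a transporter of thyroid hormones and other organic anions, was at -2.97 on the untreated array and at -0.98, -0.56 and -0.48 on the arrays labelled cortisol, serotonin and cortisol-serotonin. All 3 treated arrays were high for it, and it rose by 2.50 with the combination. Serpina3m and Serpina3n, Clca3a1 and Clca3a2, Orm2 and Orm3, and Ctla2b and its neighbour Ctla2a are close copies, and a probe may read its gene's copy as well.

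**Figure D1:**
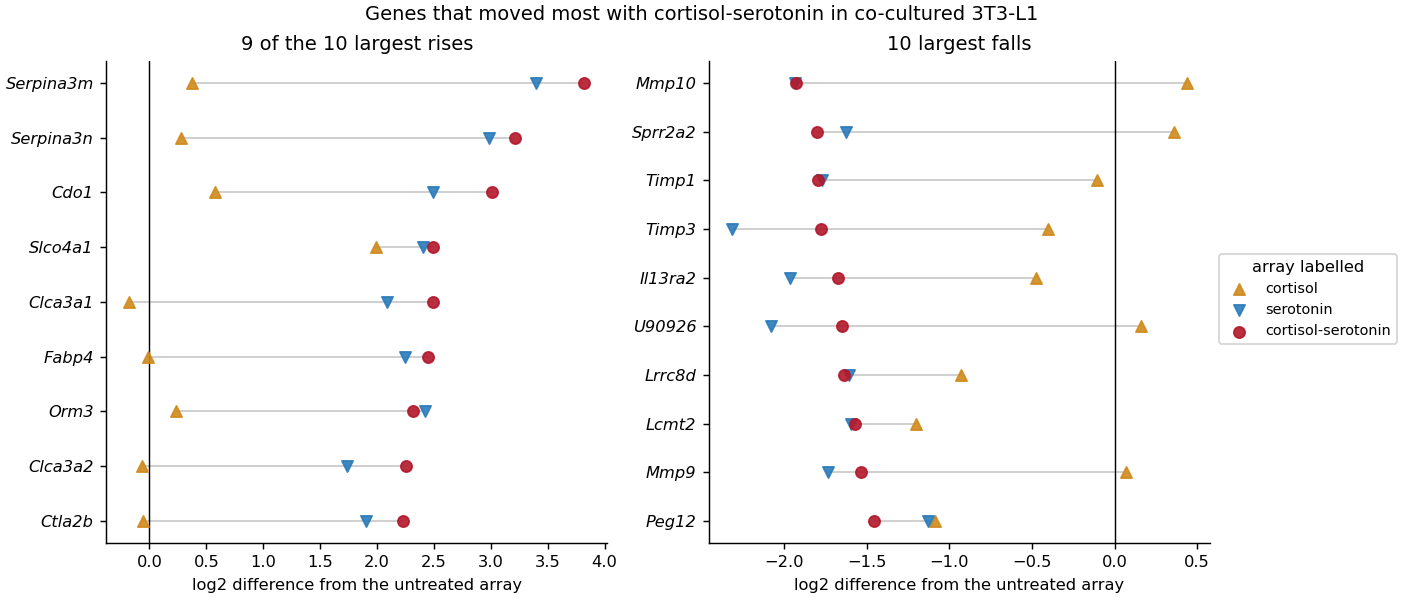
Log2 difference from the untreated array (x axis) of 9 of the 10 largest rises (left) and the 10 largest falls (right) with cortisol-serotonin in co-cultured 3T3-L1, 1 point per array. For most genes the point of the array labelled serotonin lies beside that of the combination, and the array labelled cortisol lies near 0; Slco4a1, Lrrc8d, Lcmt2 and Peg12 moved on all 3 arrays.

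Acute-phase genes as a list stood out from the median of all genes, which was 0.02. Of 30 listed, 15 were measured on both arrays, with a median difference of 1.20. Of these 15, 9 were at least 2-fold higher and 0 lower, where 0.784% of all genes were higher and 0.642% lower. The Serpina3 and Orm genes among them include close copies, so they are not all separate measurements. Beside those named above, Orm2 rose by 2.18, Serpina3f by 2.12 and Serpina3i by 1.71. On the 13 members measured on all 4 arrays the median was 0.28 on the array labelled cortisol, 0.91 on the array labelled serotonin and 1.20 with both hormones, and their median departure from the sum was -0.05. None was 2-fold off the sum. Serpina3k and Serpina3c, further members of the family, were not well above background on the untreated array. By their Cy5 signal, Serpina3k was at least 6.46-fold higher and Serpina3c at least 4.68-fold higher with the combination, and their log ratios differed by 2.86 and 2.23.

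Glucocorticoid targets rose in part. Of 29 listed, 21 were measured, of which 5 were at least 2-fold higher and 0 lower, with a median of 0.50. Below untreated lay 8 of them, down to -0.73, as did 6274 of all 13400 genes. Of all genes, 0.784% were at least 2-fold higher. Cyb561, an electron carrier of secretory vesicles, was at -1.64, -1.91, 0.13 and 0.33 on the untreated array and the arrays labelled cortisol, serotonin and cortisol-serotonin and rose by 1.97 (error 0.38). Zbtb16 rose by 1.96, Pdk4, the kinase that shuts glucose out of mitochondria, by 1.53, Fkbp5 by 1.44, and Glul, glutamine synthetase, by 1.00. Klf9 differed by 0.87, under 2-fold. The medians over the list were -0.20 with the treatment labelled cortisol and 0.39 with that labelled serotonin, and 8 of the 21 were at least 2-fold higher on the cortisol-serotonin array than on the array labelled cortisol, where 1.36% of all 12962 genes were.

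All 11 measured genes of the osmotic response and Nfat5 lay above untreated, 3 of them by 2-fold, with a median of 0.51. Over all genes, 7126 of 13400 lay above untreated and 0.784% were at least 2-fold higher. Slc6a12, the betaine carrier that Nfat5 switches on, was at -0.94, -0.99, 0.46 and 0.61 and rose by 1.55 (error 0.30). The water channel Aqp1 was at -0.03, 0.62, 1.51 and 1.44 and rose by 1.47. Nfat5, the factor itself, was at 0.65, 0.85, 1.34 and 2.03 and rose by 1.38 (error 0.45). Nfat5 was highest with both hormones, while Slc6a12 and Aqp1 were about level on the 2 arrays with serotonin in their label.

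Falls were led by proteins that cut or protect the matrix. Mmp10, stromelysin 2, was at 2.01 on the untreated array, 2.45 on the array labelled cortisol, 0.08 on the array labelled serotonin and 0.09 with both hormones. It fell by 1.93 (error 0.45), 3.80-fold. Timp1, an inhibitor of metalloproteinases, was at 2.20, 2.10, 0.43 and 0.40 and fell by 1.80, and Timp3, an inhibitor that binds to the matrix, was at 2.21, 1.81, -0.11 and 0.43 and fell by 1.78. Mmp9, gelatinase B, was at -0.55, -0.48, -2.29 and -2.09 and fell by 1.54 (error 0.12). Enzymes and inhibitors thus fell side by side, and for each the array labelled cortisol stayed near untreated.

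Not all of the group went down. Of 29 listed metalloproteinases, plasminogen activators and inhibitors, 23 were measured, 5 at least 2-fold lower and 2 higher, with a median of -0.22. Over all genes, 0.642% were at least 2-fold lower and 0.784% higher. Plau, urokinase, fell by 1.36, with an error of 0.73, and Mmp2, gelatinase A, rose by 1.04. Of 37 listed genes of collagens and matrix, 30 were measured, with 1 higher, 1 lower and a median of 0.00. Loxl2, which cross-links collagen, fell by 1.31, and Mgp, the matrix Gla protein that holds back calcification, rose by 1.27.

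The other genes among the 10 largest falls do unlike things. Sprr2a2, a small protein of the cornified envelope, was at 1.98, 2.34, 0.35 and 0.18 and fell by 1.80. Il13ra2, the decoy receptor for interleukin 13, was at 3.05, 2.57, 1.08 and 1.37 and fell by 1.67, and U90926 fell by 1.65. Lrrc8d, a subunit of volume-regulated anion channels, was at 0.88, -0.05, -0.73 and -0.75 and fell by 1.64. Lcmt2, a tRNA-modifying enzyme, was at 0.06, -1.14, -1.54 and -1.51, and Peg12, an imprinted gene, at 1.18, 0.09, 0.05 and -0.28. The last 3 were lower than untreated on every treated array.

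Genes of fat cells moved less than Fabp4. Of 38 listed adipogenic regulators and adipocyte genes, 23 were measured, 1 (Fabp4) was at least 2-fold higher and 0 lower, and the median was 0.25. Over all genes, 0.784% were at least 2-fold higher and 0.642% lower. Pparg, the master regulator of adipogenesis, was at 0.68, 0.92, 1.15 and 1.29, a difference of 0.61 (error 0.11). Plin4, which coats lipid droplets, differed by 0.81 and Agt, angiotensinogen, by 0.94. Lpl, lipoprotein lipase, was at -2.08, -2.11, -2.21 and -1.95, within its error of untreated, and so was Acaa1b, the peroxisomal thiolase, at 0.35, 0.41, 0.23 and 0.37. Adipoq and Aqp7 were not well above background on both arrays. Lists of fatty acid and sterol synthesis (33 measured, median 0.16) and of fatty acid oxidation (23 measured, median 0.02) had 0 genes past 2-fold.

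**Figure D2:**
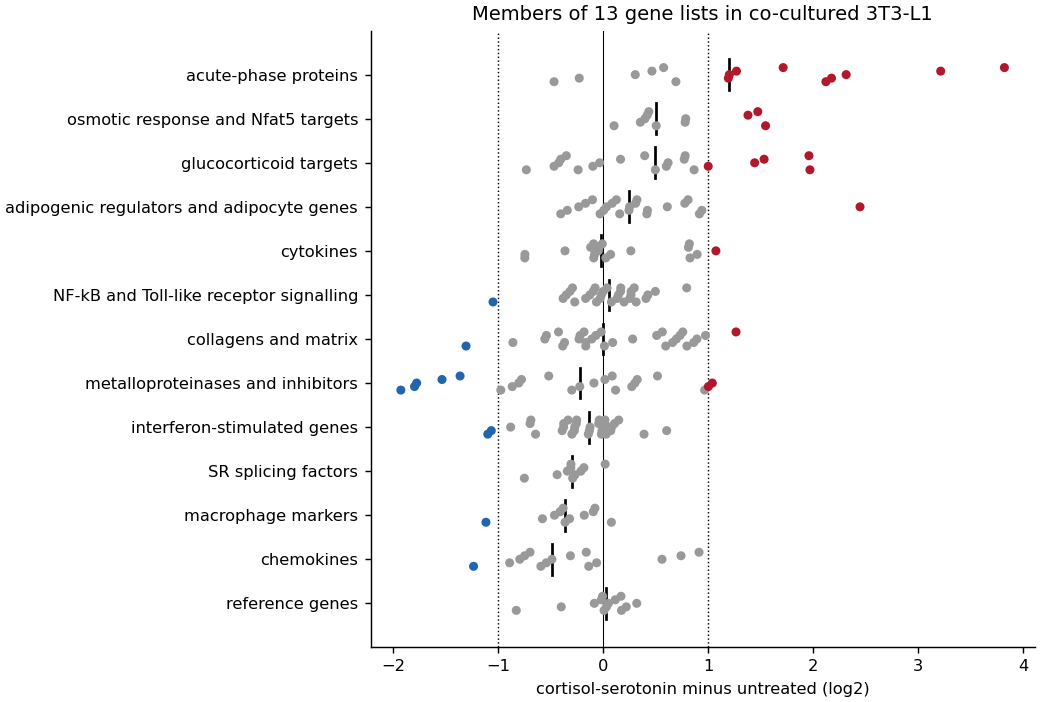
Log2 difference of cortisol-serotonin minus untreated (x axis) for the measured members of 13 gene lists, 1 point per gene; black bars are medians, dotted lines mark 2-fold, red points are at least 2-fold higher and blue points at least 2-fold lower. Acute-phase proteins reach from -0.47 to 3.82 with a median of 1.20, the chemokines have a median of -0.49, and the reference genes have a median of 0.03.

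Immune genes went both ways. Over all genes, 0.784% were at least 2-fold higher and 0.642% lower, which the counts below stand beside. Of 27 listed cytokines 18 were measured, and 1 was at least 2-fold higher, Csf3, the granulocyte growth factor, by 1.07 (error 0.34). Il6 was at 0.19 on the untreated array, 0.87 on the array labelled cortisol, -0.47 on the array labelled serotonin and -0.56 with both, a difference of -0.75 (error 0.29). Tnf differed by -0.36 (error 0.20) and Tgfb1 by 0.26 (error 0.10). Il1b and Il10 were not well above background on both arrays, and Il12b had no named probe. The chemokine list (15 measured of 27) had a median of -0.49 with 12 below untreated, as were 6274 of all 13400 genes. Its one gene past 2-fold, Ccl4, was at -5.18 and -6.41, a difference of -1.23 with an error of 0.89, and Ccl7 differed by 0.91. Chemokines such as Ccl4 and Cxcl2 are strong in macrophages, and the macrophage markers had a median of -0.36, with Ctss lower by 1.12 (error 1.05). The part of macrophage RNA in these values was not tested, and in whole cultures fewer cells of a type and less RNA per cell cannot be told apart. Interferon-stimulated genes (32 measured of 36) had a median of -0.14, and 2 were at least 2-fold lower, Rsad2 by 1.10 and Ifit1 by 1.07. Of NF-kB and Toll-like receptor genes (30 measured of 38) 1 was lower, Tlr6, by 1.05.

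The counts of the next lists stand beside 0.784% of all genes at least 2-fold higher and 0.642% lower. Of 45 listed cell cycle genes 42 were measured with a median of 0.08. At least 2-fold lower was 1 of them, Ube2s, which extends ubiquitin chains in mitosis, by 1.28. In the IGF axis (13 measured of 20), Irs2, an adaptor of the insulin receptor, rose by 1.01, and Igfbp4, which sequesters IGF, fell by 1.20. Of the serotonin list only 3 of 22 were measured. The transporter Slc6a4 stood at -3.63 and -4.17, within its error of 0.69, and the oxidase Maoa at 0.54 and 0.62. In the complement list (11 measured of 20, median 0.17), Cfb differed by -0.76 and C3 by 0.46. In the sulphur amino acid list (14 measured) Cdo1 was the one gene past 2-fold. Lists of the circadian clock (15 measured), prostaglandin and leukotriene metabolism (22), glutathione and NRF2 targets (32), ATF4 targets (25) and glycolysis and hypoxia (25) had 0 genes past 2-fold, with medians from -0.06 to 0.21. Of the CCN and mechanosensitive list (16 measured) Tns1, a focal adhesion protein, rose by 1.14. Of 13 reference genes 0 passed 2-fold, and the one that lay farthest out was Actb, beta-actin, at -0.83 (error 0.29).

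The combination was next set against the sum of the single hormones. Of 12962 genes measured on all 4 arrays, 373 (2.88%) lay 2-fold or more off the sum, 274 (2.11%) above and 99 (0.764%) below it. Over all genes the SD of the departure was 0.44, against 0.34 for the difference itself. Of the 102 genes that rose 2-fold, 64 lay within 0.5 of the sum, 10 rose at least 2-fold less than the sum and 1 at least 2-fold more. Of the 83 that fell 2-fold, 24 lay within 0.5 of the sum, 22 fell at least 2-fold less than the sum and 6 at least 2-fold more. Most of the 373 genes off the sum were under 2-fold with the combination, since 39 of them passed 2-fold.

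**Figure D3:**
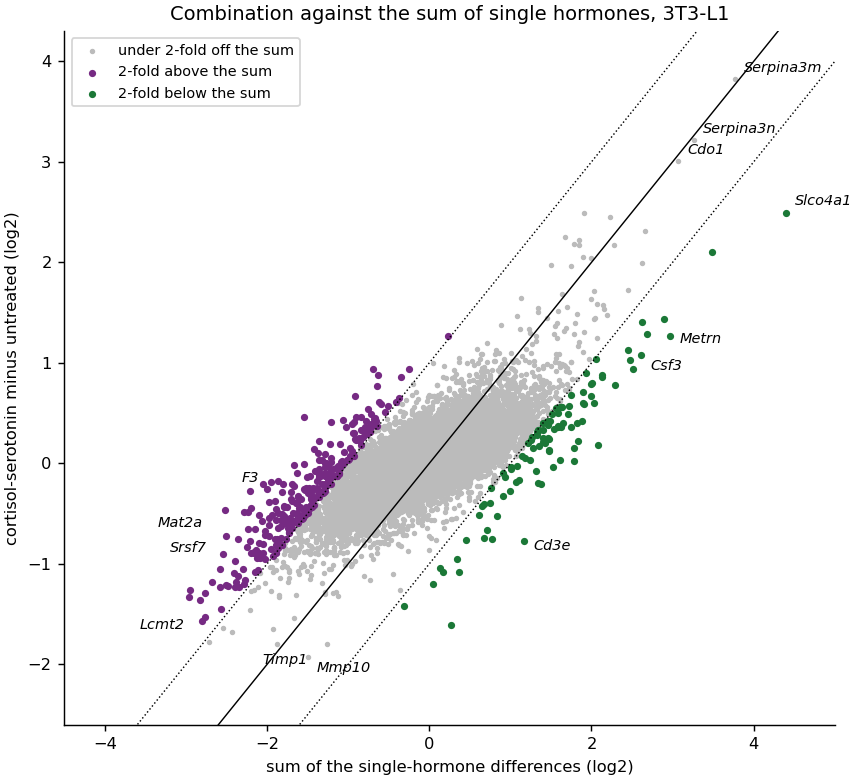
Log2 difference of cortisol-serotonin minus untreated (y axis) against the sum of the single-hormone differences (x axis) for 12962 genes in co-cultured 3T3-L1; the solid line is equality and the dotted lines lie 2-fold off it, with 274 genes above and 99 below. Both axes use the same untreated array, so the slope of the cloud is not read; Serpina3m, Serpina3n and Cdo1 lie on the line.

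For each gene off the sum, the array farthest from the mean of the other 3 was found. It was the array labelled cortisol for 193 of the 373 genes, the untreated array for 135, the cortisol-serotonin array for 29 (7.77%) and the array labelled serotonin for 16. This order depended on the channel, since with Cy5 alone the cortisol-serotonin array was the one most often apart, for 326 of 1009 genes (32.3%), before the array labelled cortisol (301). Among those 29, the other 3 arrays lay within 0.5 of each other for 15. The cortisol-serotonin array exceeded the array labelled serotonin at least 2-fold for 4 genes (0.0309%) and was lower for 8 (0.0617%), whereas it exceeded the array labelled cortisol for 176 (1.36%) and was lower for 66 (0.509%). The SD over all genes was 0.17 for the combination minus the array labelled serotonin and 0.38 for the combination minus the array labelled cortisol. Of the pairs set side by side, the combination and the array labelled serotonin were thus the closest.

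Above the sum, the commonest shape was a fall on the array labelled cortisol that was absent or smaller with both hormones. F3, tissue factor, which starts clotting, was at 1.21 on the untreated array, -0.81 on the array labelled cortisol, 1.24 on the array labelled serotonin and 0.96 with both hormones, a departure of 1.74 (error 0.33). Dr1, a repressor of transcription, was at 0.28, -1.20, -0.11 and 0.11, and Zfp995 at 0.15, -1.47, 0.10 and 0.13, departures of 1.69 and 1.65. Mat2a, which makes S-adenosylmethionine, was at 0.16, -1.45, -0.74 and -0.57, a departure of 1.78 (error 0.31), and Pcdh18, a protocadherin, was at 0.14, -1.07, -0.69 and -0.06. Trmt12, a tRNA-modifying enzyme, was different: it was at -0.80 untreated and at -2.29, -2.27 and -2.07 on the treated arrays, so that each treatment lowered it about alike.

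The gene farthest above the sum was Gm14325, which encodes a zinc-finger protein. It was at 1.19, -0.48, 0.35 and 0.73, a departure of 2.06 (error 0.31), followed by Zfp931 at 1.94, with Gm14391 at 1.77 and Zfp967 at 1.75 also among the 10 farthest. These 4 lie in a single stretch of 68 genes in RefSeq's order. After their values were seen, the other genes of that stretch were looked up, of which 3 were measured on all 4 arrays. Gm14326 lay 1.41 above the sum, Gm14440 0.49 (error 0.48) and Gm14288 0.43 (error 0.45), so that 1 of the 3 was 2-fold above it, where 2.11% of all genes were. Zinc-finger genes of such clusters are near copies, and their probes may read each other's RNA, so these genes are not separate measurements.

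**Figure D4:**
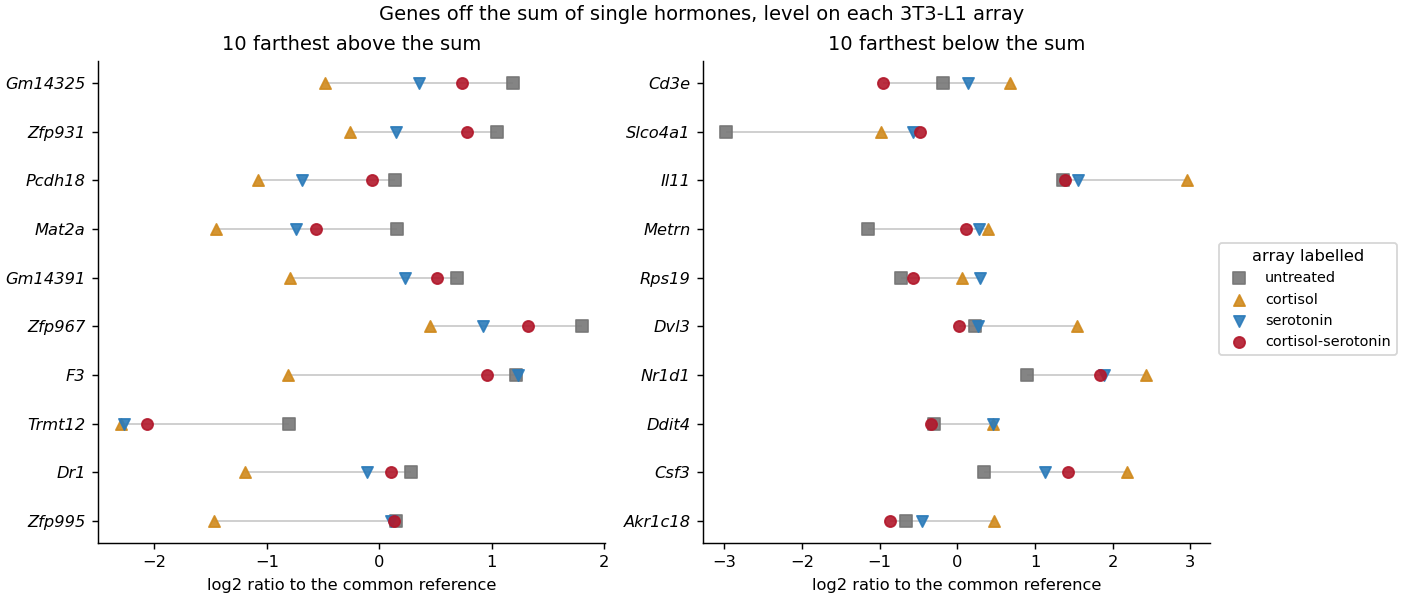
Log2 ratio to the common reference (x axis) on the 4 arrays of co-cultured 3T3-L1 for the 10 genes farthest above (left) and the 10 farthest below (right) the sum of the single hormones, 1 point per array. On the left the array labelled cortisol is the lowest point of each gene; on the right the untreated array is lowest for Slco4a1, Il11, Metrn, Rps19, Nr1d1 and Csf3, and the cortisol-serotonin array for Cd3e, Dvl3, Ddit4 and Akr1c18.

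Factors of the SR family, which bind exons and steer splicing, moved together in this respect. Of 13 listed, 10 were measured on all 4 arrays. All 10 lay above the sum, as did 6777 of all 12962 genes. By 2-fold it was 5 of the 10, against 2.11% of all genes. These counts are a description only. The lists were chosen with earlier results of these data known, and the 10 departures share the same 4 arrays. The median was -0.84 on the array labelled cortisol, -0.43 on the array labelled serotonin and -0.30 with both, and the median departure was 0.97. Srsf7 was at -0.23, -1.84, -0.97 and -0.98, a departure of 1.60 (error 0.36), and its 2 probes had an SD of 0.11 for the difference. Srsf3 was at 0.00, -1.28, -0.48 and -0.44, a departure of 1.32 over 3 probes, and Srsf2 at 0.15, -0.88, -0.15 and -0.14, a departure of 1.04. On the cortisol-serotonin array none of the 10 was 2-fold off untreated, where 1.43% of all genes were. Over all genes the median difference from untreated was 0.00 on the array labelled cortisol.

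**Figure D5:**
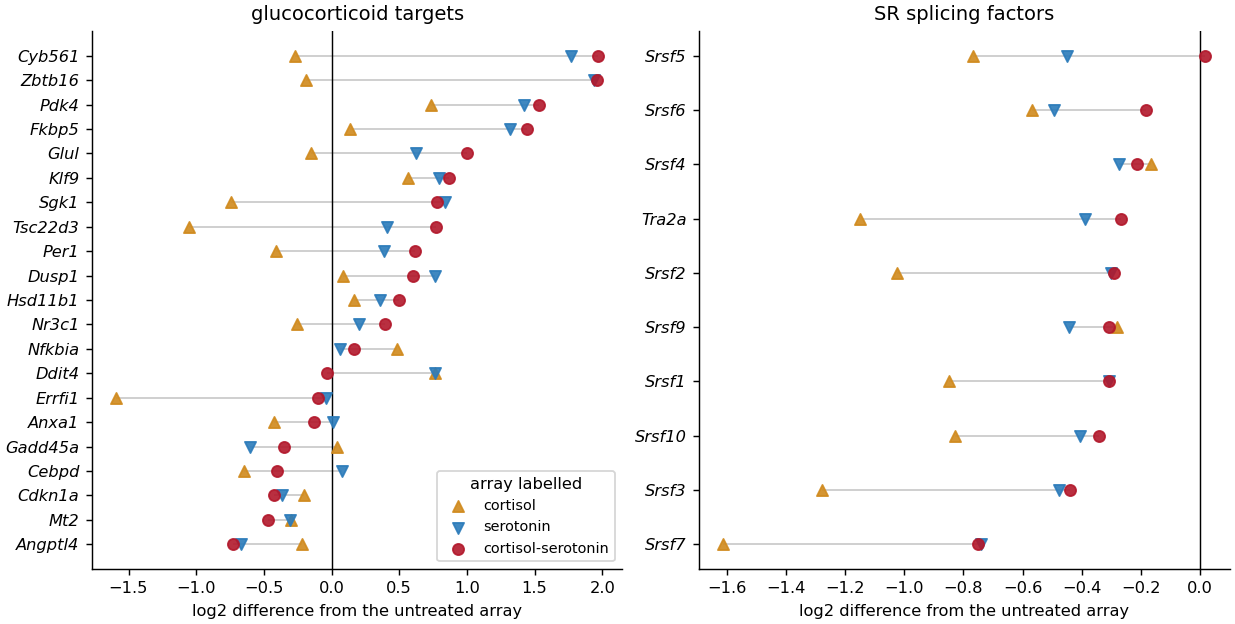
Log2 difference from the untreated array (x axis) of the 21 glucocorticoid targets (left) and the 10 SR splicing factors (right) measured on all 4 arrays of co-cultured 3T3-L1, 1 point per array. The largest rises on the left, Cyb561, Zbtb16 and Fkbp5, show on the arrays labelled serotonin and cortisol-serotonin. On the right the median is -0.84 on the array labelled cortisol, -0.43 on that labelled serotonin and -0.30 with both. Srsf4 and Srsf9 are lowest on the array labelled serotonin.

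Below the sum, 3 shapes could be told by eye among the named genes. Slco4a1, Metrn and Nr1d1 were higher on every treated array, so that the sum counted the rise 2 times. Metrn, a secreted factor that guides neurites, was at -1.15 untreated and at 0.39, 0.28 and 0.12 on the arrays labelled cortisol, serotonin and cortisol-serotonin, a departure of -1.70 (error 0.43). Nr1d1, the clock repressor Rev-erb alpha, was at 0.90, 2.42, 1.89 and 1.84, a departure of -1.57.

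The second shape was a rise on the array labelled cortisol that was absent with both. Il11, an interleukin of fibroblasts in the IL-6 family, was at 1.36, 2.95, 1.55 and 1.39, a departure of -1.75 (error 0.58). Dvl3, a relay of Wnt signals, was at 0.22, 1.55, 0.27 and 0.02, and Akr1c18, which breaks down progesterone, at -0.67, 0.47, -0.46 and -0.86. Csf3 was at 0.35, 2.18, 1.13 and 1.42, a departure of -1.54 (error 0.52), part of the way between. Of 18 cytokines, 3 were at least 2-fold below the sum and 0 above, and 15 lay below it. Of all 12962 genes, 0.764% were at least 2-fold below the sum and 6185 lay below it.

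In the third shape the level with both hormones was at or below untreated, or close to it, while each hormone alone was above untreated. Ddit4, which restrains mTORC1 and answers stress and glucocorticoids, was at -0.30 untreated, 0.46 and 0.46 on the single-hormone arrays and -0.34 with both, a departure of -1.56 (error 0.41). Rps19, a protein of the small ribosomal subunit, read -0.72, 0.06, 0.29 and -0.57, a departure of -1.64. Cd3e, a chain of the T-cell receptor complex and not a gene of fibroblasts, was at -0.18, 0.68, 0.14 and -0.95, a departure of -1.95 (error 0.56) from 1 probe, and with the Cy5 channel alone it was 0.20.

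The 8 arrays allowed a test across genes only by assuming that the hormones add up. In a limma model with an effect of each hormone in each cell line, fitted to 10995 genes measured on all arrays, 0 genes were called higher and 0 lower with both hormones in pre-adipocytes at a Benjamini-Hochberg adjusted p under 0.05 (0% each). At an unadjusted p under 0.05 there were 876 (7.97%). The smallest adjusted p in limma was 0.197, shared by Cyb561, at 1.97 ± 0.23 (SE), Fabp4, at 2.45 ± 0.29, Mmp9, at -1.54 ± 0.19, and Slc6a12, at 1.55 ± 0.20, with Fkbp5, Timp1, Gda and Ifi207. The count moved to 73 higher and 53 lower when the 4 arrays of pre-adipocytes were fitted alone, and to 28 and 10 without any 1 of the macrophage arrays. With the log ratios centred on the median of all probes in place of loess, 3713 were called higher and 1 lower. That centring moved the median of all genes by 0.99 (log2).

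A departure from the sum shared by the 2 cell lines was fitted in the same way, with the lines, which came from separate co-culture set-ups, as the replicates. Of the 10995 genes, 4 (0.0364%) were called above and 6 (0.0546%) below the sum, and 560 (5.09%) had an unadjusted p under 0.05. Ddit4 led, with a shared departure of -1.80 ± 0.26 (SE) and an adjusted p of 0.00115 in limma; it was -1.56 in pre-adipocytes and -2.04 in macrophages. The other named genes were Metrn at -1.39 (adjusted p 0.0215, limma), Lmnb1, a lamin of the nuclear envelope, at -1.31 (0.0295), Iglon5 at -1.40 and Trpt1 at -1.28. Both lines agreed in direction for each. The model asks for the same departure in both lines, so this agreement is no separate support. With the scanner's own log ratios or the Cy5 channel alone, limma called 0 above and 0 below. With the scanner's own log ratios 573 genes, and with Cy5 alone 998, had an unadjusted p under 0.05.

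The differences with the combination were also set side by side in the cell lines. Across 11023 genes measured in both, Pearson's r of the 2 differences was -0.04 and Spearman's rho -0.08, a description across genes, which are not independent, between arrays of 2 slides. In macrophages 17 of these genes were at least 2-fold higher and 7 lower. In pre-adipocytes 67 of them (0.608%) were higher and 55 (0.499%) lower. Higher in both lines were 3 genes, 4.48% of those in pre-adipocytes and 17.6% of those in macrophages, and lower in both was 1 gene, 1.82% and 14.3%. The latter was Mmp9, at -1.54 in pre-adipocytes and -1.04 in macrophages. Named among the former are Gaa, the lysosomal acid glucosidase, at 1.01 and 1.06, and Krt23, a keratin, at 1.57 and 1.48, both chosen after their values were seen. Fabp4 rose by 2.45 in pre-adipocytes and differed by 0.26 in macrophages, and Fkbp5 by 1.44 and 0.01. The difference between the lines in the hormones' effect was called for 0 of 10995 genes in limma (575, or 5.23%, at an unadjusted p under 0.05).

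Genes below background on one of the 2 arrays have a bound only. There were 869 named genes well above background in Cy5 with the combination and not without treatment, of which 46 were higher by a bound of at least 2-fold, and 355 the other way round, of which 91 were lower by such a bound. The log ratio moved at least 2-fold the same way for 5 of the 46 and 3 of the 91. Beside Serpina3k and Serpina3c, the largest upward bounds were those of Clca4b (at least 5.08-fold), Ackr1 (at least 4.39-fold), Cnga4 and A4gnt, which were near background on all 3 other arrays and whose log ratios differed by -0.17 to 0.18. Downward, Psmg4, a proteasome assembly chaperone, had the largest bound, at least 16.9-fold, but its log ratio was -0.29 untreated and 0.02 with the combination, where the spot was dim in both channels. Msr1, a scavenger receptor of macrophages, was at least 4.03-fold lower, and its log ratio differed by -1.86. For Dapk1, Zfp808, Micalcl and 4932438H23Rik the log ratios differed by -0.17 to 0.07.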

How the data were processed

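The 2-colour arrays of the comparison study were scanned by the authors with Agilent Feature Extraction (10.5.1.1 per the labels). The deposited scanner files give spot and background intensity in both channels, without normalization between arrays, and the software's log10 ratio with its error, which was used for errors and as an alternative. A deposited series matrix equals that log10 ratio within 0.005 and was not used further. The labels call the Cy3 reference a mix of all samples, the methods a pool of untreated cells grown alone; it cancels in differences.

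Intensities were corrected with normexp (offset 50) and log2 ratios normalised by loess in limma 3.58.1 (R 4.3.3), leaving out control and outlier spots. Of 39429 probes 27508 (69.8%) were named through RefSeq (GRCm38.p6). A gene is the mean of those of its probes that the scanner called well above background on each compared array, in Cy5 and in Cy3. A bound sets the Cy5 signal of the bright array against the higher of the dim probe's signal and the lowest signal above background, after loess and Aquantile; it is open to dye bias, as no dyes were swapped. Calls are 2-fold; with 1 array a side, precision is limited by the number of arrays. limma models over 8 arrays (10995 genes) gave Benjamini-Hochberg adjusted p-values, with 2 residual degrees of freedom for the additive and 1 for the shared departure model. They were run on simulated data with the same noise for every gene and changes that met each model's assumption. Those data cannot show how the models do where the assumptions fail. The residual of the additive model is the departure from additivity in the 2 lines. That of the shared departure model is the difference between the departures of the lines. P-values and SEs rest on these residuals, which may be technical, and measure no spread between cultures.

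The 27 gene lists (683 genes) and the members were chosen with earlier results of these data known. Named genes were the 10 largest rises, falls and departures each way past 2 errors, the 6 largest bounds each way, the 8 smallest p of each model, up to 6 genes of a list, genes the study measured by RT-PCR or ELISA, and 5 glucocorticoid targets as a check; 1 of the 10 largest rises is not reported here; the text says where a gene was picked later, with its values known. Alternatives were the scanner's log ratios, median centring, the Cy5 channel alone, no background correction, no filter, a net signal of 100, probe medians, a threshold of 2 errors, fewer arrays, and, added after seeing the data, the share of departures from the array labelled cortisol under each.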

Additional observations from a re-analysis of the deposited data

How the results depend on the processing

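Most counts kept within 1.5 times of their value without background correction, with a net signal of at least 100, with probe medians and at a threshold of 2 errors, while the scanner's log ratios, median centring and the Cy5 channel alone moved them. Genes 2-fold higher with the combination numbered 6635 with median centring and 399 with Cy5 alone, and genes 2-fold lower 219 with the scanner's log ratios, 2 with median centring and 196 with Cy5 alone. Median centring moved the median of all genes by 0.99; relative to it 99 were higher and 258 lower. Genes above the sum numbered 535, 17 and 662 with the scanner's log ratios, median centring and Cy5 alone, and genes below it 296, 3627 and 347, and 160 without a filter on dim probes. The array labelled cortisol stood apart for 51.7% of genes off the sum, for 1.56% with median centring and for 29.8% with Cy5 alone, where the cortisol-serotonin array led with 32.3% in place of 7.77%; with median centring the untreated array stood apart for 97.8%. The additive limma model called 3713 higher and 1 lower with median centring, 3 higher without a filter, 73 higher and 53 lower from the pre-adipocyte arrays alone, and, leaving out 1 array at a time, 0 to 28 higher and 0 to 10 lower, the upper values for each macrophage array, since that line then fits exactly. The shared departure had 0 calls above with the scanner's log ratios, median centring, Cy5 alone, no filter and a net signal of 100, 9 without background correction and 2 with probe medians; below, it had 0 with the scanner's log ratios, Cy5 alone and no filter, 1 with median centring and with a net signal of 100, and 3 with probe medians. Of the named genes, signs turned for Ifit1 against untreated (0.051, median centring), and against the sum for Cd3e (0.20, Cy5 alone), Mgp (-0.026, Cy5 alone) and Trib3 (-0.13, median centring). The causes were not tested. No paired analysis was possible because each group had 1 array. With 1 array per condition neither the difference nor the departure of a gene has an error between cultures, and the spots well above background, 45.6% to 47.8% on the pre-adipocyte arrays, limit what was measured.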
